A study of Mus musculus with 24 samples.

Results

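Small nucleolar RNAs (snoRNAs) were taken as the rows of the count table whose symbol begins with Snord or Snora and whose mean raw count over the 24 libraries was at least 10. Of 138 such symbols among 55291 rows, 31 passed, and these are called members here. They were chosen by their counts, so their level is a description and not a finding. By symbol, 16 members belong to the C/D box class and 15 to the H/ACA box class. The libraries were made from total RNA of C2C12 cells, an immortalized mouse myoblast line according to the study, although the labels name primary myoblasts. Lentiviral transduction and puromycin selection, as described in the study, were used for every line, the control included, although the labels name Lipofectamine. A short hairpin RNA (shRNA) was thus stably expressed in 4 cell lines. They were scr (scrambled control shRNA), Baf180 KD (knockdown of a PBAF subunit), Baf250a KD (a subunit of canonical BAF) and Brd9 KD (a subunit of non-canonical BAF), which all belong to the SWI/SNF family of chromatin remodelers. Each was left without added metal (NT) or grown with 100 µM CuSO4 (Cu) or 50 µM ZnSO4 (Zn) for 48 h. There were 2 replicates in each of 12 conditions. The study calls the replicates independent, lists 2 shRNAs for each subunit and does not state which of them gave these libraries. How many selected populations each KD rests on is not stated.

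SnoRNAs are short nuclear RNAs that guide the chemical modification of ribosomal RNA (rRNA) by base pairing. C/D box snoRNAs assemble with fibrillarin (Fbl), Nop56, Nop58 and Snu13 and direct ribose methylation, whereas H/ACA box snoRNAs assemble with Dkc1, Nop10, Nhp2 and Gar1 and direct conversion of uridine to pseudouridine. A few take part in the cutting of precursor rRNA instead, among them Snord118 (also named U8) and the Snora73 pair (also named U17). In mammals most are released from introns of a host gene, often one that encodes a ribosomal protein, while Snord118 and Snord13 are known to have promoters of their own.

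The sequences of 8 members on which the results turn are shown so that both box classes can be seen, from GENCODE M21 on GRCm38, 5′ to 3′ on the strand of the gene. In the C/D box members capitals mark the first TGATG of the front part (C box) and the last CTGA within 20 bases of the end (D box). In the H/ACA box members they mark the ACA within 8 bases of the end.
Snord15a: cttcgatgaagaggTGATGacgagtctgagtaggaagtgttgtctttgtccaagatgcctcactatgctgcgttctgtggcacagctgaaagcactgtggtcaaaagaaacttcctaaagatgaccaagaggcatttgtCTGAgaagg
Snord17: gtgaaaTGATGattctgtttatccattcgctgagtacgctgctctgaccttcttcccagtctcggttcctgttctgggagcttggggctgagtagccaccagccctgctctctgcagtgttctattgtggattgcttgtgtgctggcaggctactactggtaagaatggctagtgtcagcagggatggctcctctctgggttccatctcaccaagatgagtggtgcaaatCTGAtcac
Snord43: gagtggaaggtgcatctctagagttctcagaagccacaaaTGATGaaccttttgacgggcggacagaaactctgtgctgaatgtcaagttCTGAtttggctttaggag
Snord118: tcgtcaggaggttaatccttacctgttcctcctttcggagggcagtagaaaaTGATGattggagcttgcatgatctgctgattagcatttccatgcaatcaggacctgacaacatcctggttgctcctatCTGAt
Snora73b: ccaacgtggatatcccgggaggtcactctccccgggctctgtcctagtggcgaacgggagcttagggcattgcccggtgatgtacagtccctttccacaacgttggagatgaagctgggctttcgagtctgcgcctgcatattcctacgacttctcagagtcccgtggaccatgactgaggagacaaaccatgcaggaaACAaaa
Snora73a: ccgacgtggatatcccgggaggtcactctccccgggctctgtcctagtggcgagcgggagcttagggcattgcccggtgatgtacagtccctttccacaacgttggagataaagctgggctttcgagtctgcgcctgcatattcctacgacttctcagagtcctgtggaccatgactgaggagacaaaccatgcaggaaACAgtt
Snora23: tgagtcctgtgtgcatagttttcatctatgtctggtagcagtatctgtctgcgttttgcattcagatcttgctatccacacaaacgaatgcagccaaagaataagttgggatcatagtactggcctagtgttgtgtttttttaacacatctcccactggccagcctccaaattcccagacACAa
Snora78: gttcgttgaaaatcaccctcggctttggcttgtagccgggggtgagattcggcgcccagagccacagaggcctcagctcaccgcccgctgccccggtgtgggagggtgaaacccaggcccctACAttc
Snord15a lies at chr7:99482785-99482932 on the minus strand in an intron of Rps3, and Snord43 at chr15:80082847-80082954 on the same strand in an intron of Rpl3. Snord17 lies at chr2:144265979-144266216 on the minus strand within Snx5. Snord118, at chr11:69073427-69073561 on the plus strand, lies within no annotated same-strand host. Snora73b (chr4:132352322-132352526) and Snora73a (chr4:132352775-132352979) both lie in Snhg3 on the minus strand, Snora23 (chr7:110046364-110046547, plus strand) in Ipo7 and Snora78 (chr17:24719676-24719803, minus strand) in Snhg9. The Snora73 copies are 205 bases long and differ at 7 positions (96.6% identity). Since only uniquely aligned pairs were counted, the split of reads between these copies is uncertain.

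The letters of the boxes followed the symbols. TGATG in the front part of the sequence together with CTGA near the end was found in 15 of 16 C/D box members (93.8%) and in 0 of 15 H/ACA box members, on the gene's strand only, against 88 of the 98 Snord rows (89.8%) and 0 of the 40 Snora rows. ACA near the end with ANANNA between 30% and 70% of the length (H box) was found in 14 of 15 H/ACA box members (93.3%), in 1 of 16 C/D box members and in 36 of the 40 Snora rows (90%). Snord85 is the C/D box member without TGATG in its front part, and Snora78 the H/ACA box member without ANANNA in that window. The search letters are short, and a match is a description of the sequence only. Median length was 80 bases in the C/D box members (66 to 238) and 137 bases in the H/ACA box members (128 to 205).

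Which snoRNAs can be seen in these counts followed their position relative to exons. Of the 138 rows, 54 lie wholly inside an exon of another gene on the same strand in GENCODE M21, and all 54 had a count of 0 in all 24 libraries. Of 11 rows partly inside such an exon, 2 were members, Snora73a (77.6% inside Snhg3 exons) and Snora2b. Of 73 rows outside such exons, 29 were members and 18 had 0 in every library, 17 of them copies of the imprinted Snord116. Among well-known snoRNAs at 0 were the 3 rows within Gas5 (Snord47, Snord78 and Snord80), Snord22 within Snhg1, the processing snoRNAs Snord14a, Snord14c, Snord14d, Snord14e and Snora74a, all 19 rows of the imprinted families, and Snord33 and Snord35b among the 5 rows of the Rpl13a list. The other 3 of that list had mean raw counts of 5.79 (Snord32a), 3.08 (Snord35a) and 1.71 (Snord34). The counting program by default leaves out pairs that overlap exons of 2 genes, and its part in the counts of 0 was not tested. The annotation release that the study used for counting is not given in the sources used here. The threshold itself separated close neighbours, with Snord85 (mean raw count 10.5) and Snord110 (10) just inside and Snord93 (9.21) and Snord87 (8.83) just outside.

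**Figure D1:**
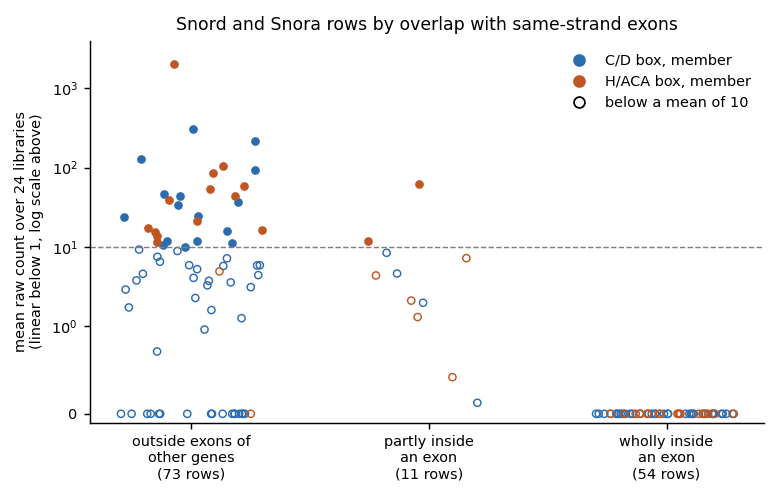
Mean raw count over 24 libraries (y axis, linear below 1 and logarithmic above) of the 138 Snord and Snora rows, by their overlap with same-strand exons of other genes (x axis, points spread sideways for sight). Blue points are C/D box rows and orange points H/ACA box rows, filled where the mean is at least 10 (dashed line), and all 54 rows wholly inside an exon lie at 0.

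Total counts per library ran from 495778 (Baf250a KD Zn replicate 2) to 75179394 (scr Zn replicate 2), with a median of 22158430. Pbrm1, which encodes Baf180, Arid1a, which encodes Baf250a, and Brd9 were each lower in their own KD than in all 6 scr libraries (log2 fold changes of -1.47, -1.41 and -0.86). Of 6 myoblast markers, 4 were above 0 in every library, among them Myod1 (67.6 to 153 CPM) and Des (777 to 2519 CPM), while Pax7 and Msc were at 0 in 1 library each. Of 4 markers of other cells, Ptprc did not exceed 0.206 CPM, Pecam1 0.377 CPM, Cdh1 0.753 CPM and Epcam 0.092 CPM. CPM, the unit of all levels given here, are the counts of a gene relative to the size of its library, scaled by the trimmed mean of M values (TMM). In these bulk samples fewer cells of a type and less RNA per cell cannot be told apart, and reads from a mature snoRNA cannot be told apart from reads of the unspliced host intron.

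Members made up a small part of each library. The 24 libraries held 86400 member counts in all, between 52 and 11208 per library, with a median of 2694. Per kilobase of annotated length, Snora73b stood first with a mean of 399 CPM per kb, and Snord15a (65.0), Snord104 (55.6), Snord17 (53.3) and Snord43 (49.2) came next. By the median over libraries Snora73b was again first (368 CPM per kb), while these 4 lay close together in another order, Snord43 (55.2), Snord104 (52.9), Snord15a (51.0) and Snord17 (48.5). The lowest by either measure were Snora41 and Snora2b. Snora73b alone held 36.7% to 61.4% of all member counts of a library.

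Summed over members, the level was 292 ± 163 CPM (mean ± SD, n = 2) in scr NT, 173 ± 39.2 in scr Cu and 140.1 ± 2.99 in scr Zn. In Baf180 KD it was 107 ± 5.93 in NT, 188 ± 45.2 in Cu and 149 ± 0.301 in Zn. In Baf250a KD it was 99.0 ± 34.3 in NT, 104 ± 24.3 in Cu and 103 ± 2.13 in Zn, and in Brd9 KD 142 ± 0.804, 150.2 ± 32.9 and 131 ± 5.31. Both Baf180 KD NT libraries lay below all 6 scr libraries, as did all 6 Baf250a KD libraries. Brd9 KD Cu replicate 1 (127 CPM) and both Brd9 KD Zn libraries (127 and 134 CPM) also lay below the lowest scr library (138 CPM). With 2 libraries a condition, an exact permutation test between 2 conditions cannot reach the threshold, and no test of these sums was run.

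The balance of the classes varied little among most libraries. C/D box members took a median of 28.5% of member counts, from 24.8% in Baf250a KD NT replicate 2 to 46.6% in Baf250a KD Zn replicate 1 (696 of 1495 counts, Wilson 95% interval 44.0% to 49.1%). The other Baf250a KD Zn library had 34.6% from only 52 member counts (23.2% to 48.2%). Without Snora73b and Snord17, the top member of each class, the median was 56.7% (49.4% to 66.8%). These intervals cover counting error only, since read pairs carry no molecular identifiers.

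A single library stood apart, scr NT replicate 2. Its summed member CPM was 408, whereas the other 23 libraries lay between 74.8 and 220, and scr NT replicate 1 had 177. It was the highest of all 24 libraries for 20 of the 31 members. Against the median of the other 5 scr libraries, members were 2.19 times as high in the median (0.17 times for Snord70 to 12.6 times for Snord13), and 25 of 31 were above all 5. Snord13, for example, had 7.06 CPM there and 0.64 CPM in replicate 1, and Snora73b had 239 and 98.7 CPM. Of 23 other short structural RNAs, 17 were also above all 5 other scr libraries (median 1.95 times, for example Rny1 with 387 against 75.7 CPM in replicate 1), and of the 21 host genes 12 were (median 1.23 times). This library enters every comparison with scr NT, and the member counts and medians that rest on it are given with and without it. Snord13 and Snord110 passed the mean raw count of 10 only with it. Snord13 had 152 of its 374 counts there and a mean of 9.65 over the other 23 libraries, and Snord110 had a mean of 9.96. The other library that stood apart was Baf250a KD Zn replicate 2, in which 13 of 31 members had any count, and in which the limit that a count of 0 allows (3 counts) was 5.83 CPM.

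**Figure D2:**
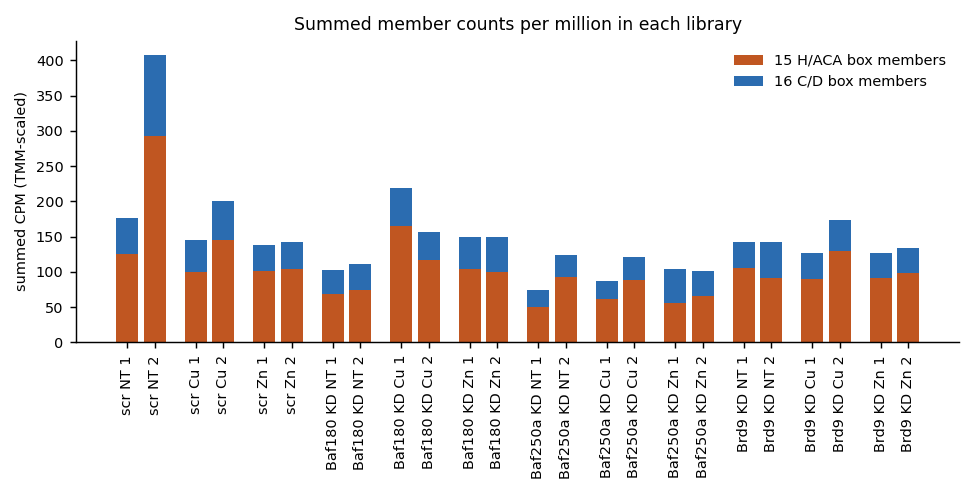
Summed CPM of the members in each of the 24 libraries (bars, from 0), with H/ACA box members in orange and C/D box members in blue. The bar of scr NT replicate 2 reaches 408 CPM and no other bar exceeds 220 CPM.

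**Figure D3:**
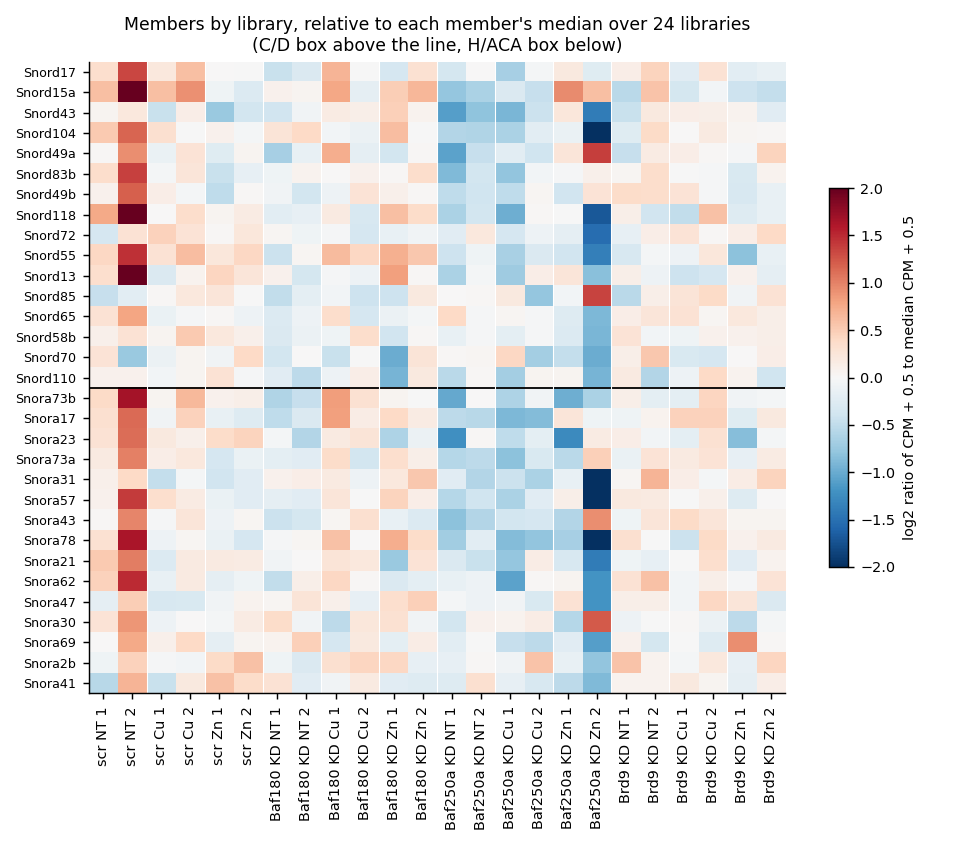
Each member (rows) in each library (columns), as the log2 ratio of CPM + 0.5 to the member's median CPM + 0.5 over 24 libraries, on a scale cut at -2 and 2. The column of scr NT replicate 2 is red for most members, and most of the deepest blue cells, in the column of Baf250a KD Zn replicate 2, are counts of 0 in that library of 495778 counts.

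The comparison of each KD with scr asked whether loss of a SWI/SNF subunit went with other snoRNA levels, over the 12 libraries of both lines with treatment as a term. All values are edgeR quasi-likelihood tests with a Benjamini-Hochberg adjusted p under 0.05 over all genes tested. In Baf250a KD, 14 of 27 members tested fell and 0 rose, where 27.0% of all 14299 genes tested fell. The log2 fold change of these 27 members had a median of -0.91 (from -2.20 to 0.02), beside -0.02 over all genes. Of the H/ACA box members 9 of 13 fell (median -1.01) and of the C/D box members 5 of 14 (median -0.73), and the difference between the classes was not tested. The 14 were Snord13, Snord17, Snord55, Snord104, Snord118, Snora17, Snora21, Snora23, Snora43, Snora57, Snora69, Snora73a, Snora73b and Snora78.

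Snord55 lay below scr in every library of NT and Cu. In Baf250a KD it had 0.46 and 0.71 CPM in NT, 0.32 and 0.54 CPM in Cu and 0.49 and 0 CPM in Zn. In scr it had 1.21 and 3.02 CPM in NT, 1.07 and 1.47 CPM in Cu and 1.00 and 1.22 CPM in Zn. The log2 fold change was -1.65 ± 0.30 (SE; edgeR adjusted p = 3.83e-04), and this call was kept without scr NT replicate 2. Snora78, in the non-coding host Snhg9, had 0.74 and 1.22 CPM in Baf250a KD NT, 0.60 and 0.67 CPM in Cu and 0.77 and 0 CPM in Zn. In scr it had 1.98 and 5.71 CPM in NT, 1.36 and 1.56 CPM in Cu and 1.33 and 1.09 CPM in Zn. It also lay below scr in every library of NT and Cu (log2 fold change -1.46 ± 0.32, SE; edgeR adjusted p = 0.00182).

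Snora73b, the processing snoRNA with the highest level, showed the same order with far more counts. It had 37.0 and 75.7 CPM in Baf250a KD NT, 48.8 and 71.8 CPM in Cu and 38.2 and 48.6 CPM in Zn. In scr it had 98.7 and 239 CPM in NT, 78.4 and 119 CPM in Cu and 80.2 and 82.0 CPM in Zn. All Baf250a KD libraries lay below every scr library (-1.10 ± 0.25, SE; edgeR adjusted p = 0.00242). Of the 14 called, 6 had values below scr in every treatment, these 3 and Snora23 (-1.17), Snord104 (-0.94) and Snora69 (-1.07). The share of all genes separated in this way was not computed, so this count is a description only. However, 4 of the 6 (Snord55, Snora78, Snord104 and Snora69) were at 0 in Baf250a KD Zn replicate 2, where the limit of 5.83 CPM lies above their scr Zn values, so that for Zn they cannot be said not to overlap. Snora23 had 2 counts there (3.89 CPM), and 3 counts would be 5.83 CPM, above its scr Zn values of 4.52 and 4.81 CPM. Its separation in Zn is therefore uncertain as well. Snora73b had 25 counts in that library. Snord118 (-1.61 ± 0.49) and Snora73a (-0.95 ± 0.24), both known from rRNA processing, and the methylation guide Snord17 (-0.65 ± 0.22) also fell, with overlap in at least 1 treatment. Snord13 (-2.20 ± 0.85) was called as well, but it met the count threshold only through scr NT replicate 2, the group it is compared with, so that this call is a description.

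The count in Baf250a KD moved with the libraries used. It was 10 of 27 members tested without scr NT replicate 2 (median -0.59; 26.0% of genes fell). It was 8 of 29 without Baf250a KD NT replicate 1 (median -0.66; 22.5% of genes) and 9 of 29 without Baf250a KD NT replicate 2 (median -0.78; 23.2%). In each of these settings the share of members that fell lay closer to that of all genes than with all libraries. The count was 22 of 30 without Baf250a KD Zn replicate 1 (median -1.03), where the share of all genes that fell was also higher. It was 8 when both libraries that stood apart were left out (25.6% of genes fell), 21 of 30 members tested in the untreated libraries alone (median -1.47), where 28.9% of genes tested fell, and 11 of 30 there with scr NT replicate 1 only (median -0.86; 26.9% of genes). In the Cu and Zn libraries alone it was 4 of 23 (Snora23, Snora73b, Snora78 and Snord55; median -0.51), where 19.5% of genes fell. All members called in each of these settings fell. With both libraries that stood apart left out, 27 members were tested (median -0.57). The share of members that fell was there, too, closer to that of all genes than with all libraries. Snora73b and Snora23 passed in all 21 alternatives tried, and Snord55, Snora78 and Snora73a in 20 of them. With a correction for GC content and length 7 of 27 were called, of which 6 fell and Snora47 was higher (0.63). There 34.3% of genes fell, and the member median moved to -0.26, beside -0.10 over all genes. Myoblast markers moved in the same comparison, with 5 of 6 lower and 1 higher (median -1.28; 4 and 1 without scr NT replicate 2). Of 4 myotube markers 2 were higher and 2 lower (median -0.04). The part of these markers in the member values was not tested.

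In Brd9 KD, 4 of 31 members tested fell and 0 rose, where 15.7% of all 14460 genes tested fell, and the median was -0.195. These were Snord55 (-1.21 ± 0.31, SE), Snord15a (-0.93 ± 0.27), Snord13 (-1.83 ± 0.61) and Snora23 (-0.59 ± 0.21). Snord15a, a guide of rRNA methylation, had 5.06 and 11.5 CPM in Brd9 KD NT, 5.78 and 7.27 CPM in Cu and 5.55 and 5.30 CPM in Zn. In scr it had 11.7 and 33.2 CPM in NT, 11.7 and 14.7 CPM in Cu and 7.07 and 6.14 CPM in Zn, above Brd9 KD in each treatment (edgeR adjusted p = 0.0168). Snord13 is again a description, for the reason given above. In the untreated libraries alone 5 of 28 were called, all lower (Snora21, Snora73b, Snord13, Snord55 and Snord118; median -0.82), where 14.1% of genes fell, and with scr NT replicate 1 only 1 was called (Snora73b; median -0.17; 8.97% of genes). Without scr NT replicate 2 the median over all treatments was -0.06 and the calls were Snord55 and Snord15a, which were also the 2 called in the Cu and Zn libraries alone (median -0.05; 13.2% of genes fell). The count was 2 as well without any 1 of Brd9 KD Cu replicate 1, NT replicate 2 or Zn replicate 2 and of scr Zn replicate 1 or 2, and 7 without Brd9 KD Cu replicate 2. All 4 markers of myotubes tested were lower in Brd9 KD (median -1.27). Of 6 myoblast markers 2 were higher and 3 lower (median -0.29). The part of these markers was not tested.

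In Baf180 KD, 1 of 29 members tested fell, Snora23 (-0.65 ± 0.23, SE; edgeR adjusted p = 0.0383), where 19.7% of all 14567 genes tested fell, and the median was -0.39. This call was lost in 7 of the 12 settings that left out 1 library, among them the one without scr NT replicate 2, in which Snora47 was called instead, as higher (0.58), and the median was -0.10. It was also lost with a correction for GC content and length, under which 3 other members were called, all higher (Snora31, Snora47 and Snord43). In the untreated libraries alone 18 of 29 members were called, all lower, with a median of -1.17, where 19.3% of genes fell. With scr NT replicate 1 as the only scr library there, 4 of 29 were called, all lower (Snora17, Snora73b, Snord15a and Snord17), with a median of -0.53, where 15.3% of genes fell. In the Cu and Zn libraries alone, where 24.1% of genes fell and 23.7% rose, the median was 0.02 and 3 of 31 were called, of which Snora78 (0.69) and Snord43 (0.53) were higher and Snord72 (-0.63) was lower in Baf180 KD. Snora78 had 1.48 and 1.56 CPM in Baf180 KD NT, 2.50 and 1.52 CPM in Cu and 2.83 and 2.10 CPM in Zn. Of 4 myotube markers 3 were higher and 0 lower in Baf180 KD against scr (median 1.46). Of 6 myoblast markers 2 were higher and 3 lower (median -0.05), and the part of these markers was not tested. The 3 comparisons of a KD with scr share the scr libraries, and their values are given side by side only.

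**Figure D4:**
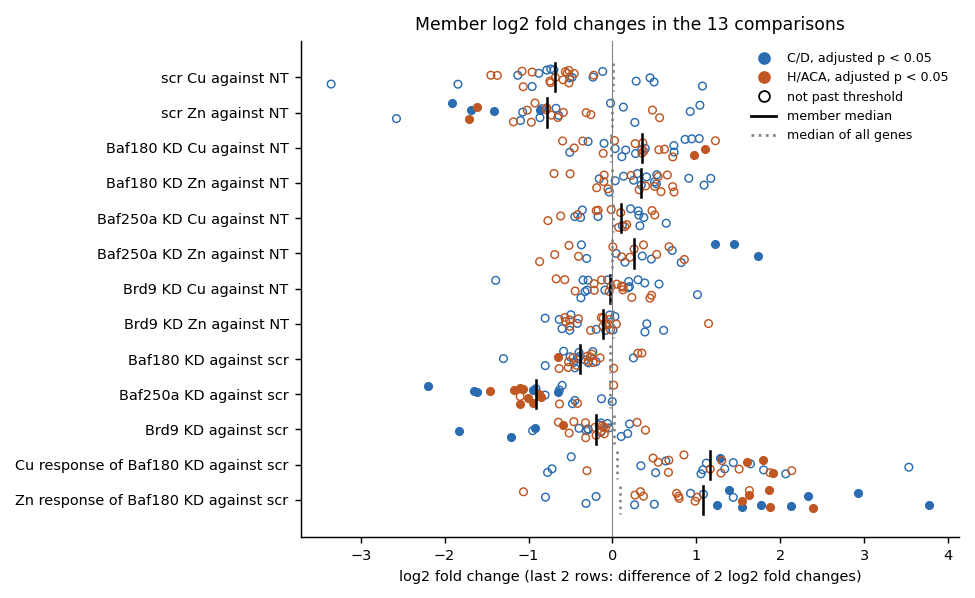
Log2 fold change (x axis) of each member tested in the 13 comparisons (y axis), with C/D box members in blue and H/ACA box members in orange, filled where the edgeR adjusted p is under 0.05. Black bars mark the member median and dotted grey bars the median of all genes, which lie farthest apart in scr with metal, in Baf250a KD against scr and in the last 2 comparisons, all of which use scr NT replicate 2.

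The comparison of metal with NT within each line asked whether Cu or Zn moved snoRNA levels. In scr with Cu 0 of 31 members were called by edgeR, 10 had an unadjusted p under 0.05, DESeq2 called 1, and 0.0333% of 15002 genes tested were called. The median of members was -0.68, and without scr NT replicate 2 it was -0.08. In scr with Zn 6 of 31 members fell and 0 rose, where 7.13% of genes tested fell, and the median was -0.785. The 6 were Snord15a, Snord83b, Snord104, Snord118, Snora62 and Snora78.

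Snord15a in scr had 11.7 and 33.2 CPM in NT and 7.07 and 6.14 CPM in Zn. These groups did not overlap, and the log2 fold change was -1.69 ± 0.41 (SE; edgeR adjusted p = 0.0349). Snord118, the processing snoRNA with its own promoter, had 2.23 and 7.76 CPM in NT and 1.19 and 1.32 CPM in Zn (-1.91 ± 0.515, SE; edgeR adjusted p = 0.0443). Snora62, in the ribosomal protein gene Rpsa, had 1.08 and 2.74 CPM in NT and 0.52 and 0.58 CPM in Zn (-1.705 ± 0.478, SE; edgeR adjusted p = 0.0480). In all 6 both NT libraries lay above both Zn libraries, and replicate 2 was the higher of the NT libraries. The share of all genes with such separation was not computed. Without scr NT replicate 2 0 were called and the median was -0.26, and over all genes 8 were called in place of 2645. The count was also 0 without scr Zn replicate 1, without scr Zn replicate 2, with the replicate number as a block and with a correction for GC content and length, and it was 13 without scr NT replicate 1 and 12 without scr Cu replicate 1. In the first of these settings the median was -0.715 and 7 genes were called in all, in the second -0.902 with 5 genes and in the third -0.79 with 14 genes, so that calls were lost over all genes while the member median moved little. With the GC content and length correction the median was -0.35 and 16 genes were called. The counts of 13 and 12 stand without the share of all genes and are a description only.

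In Baf180 KD with Cu 2 of 29 members rose, where 5.46% of all 15241 genes tested rose, and both belong to the H/ACA box class. Snora73b had 49.3 and 54.4 CPM in NT and 135 and 93.0 CPM in Cu, with no overlap (1.10 ± 0.15, SE; edgeR adjusted p = 0.00588), and it passed in all 11 alternatives. Snora17 had 2.78 and 3.33 CPM in NT and 7.76 and 4.69 CPM in Cu (0.98 ± 0.26, SE; edgeR adjusted p = 0.0373). The count was 1 without Baf180 KD Cu replicate 1, NT replicate 1 or NT replicate 2, and 4 without Baf180 KD Cu replicate 2. With the replicate number as a block it was 3, with Snord17 added, and 3892 genes were called in all in place of 2097. In Baf180 KD with Zn 0 of 29 members were called by edgeR and 1 by DESeq2, 5 had an unadjusted p under 0.05 and 0.0197% of genes tested were called. Snora73b had 78.3 and 75.2 CPM there, above both NT libraries (0.545 ± 0.153, SE; edgeR adjusted p = 0.317), and it was called with the replicate number as a block, with 657 genes called in all in place of 3.

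In Baf250a KD with Zn 3 of 23 members rose, all of the C/D box class, where 8.85% of all 14706 genes tested rose. Snord15a had 4.22 and 4.66 CPM in NT and 15.04 and 11.67 CPM in Zn, with no overlap (1.73 ± 0.20, SE; edgeR adjusted p = 4.84e-06). It thus lay higher with Zn here and lower with Zn in scr, a difference that was not tested. Snord49a (1.45 ± 0.47) and Snord43 (1.23 ± 0.29) rose as well, Snord43 with 2.52 and 3.20 CPM in NT and 7.03 and 1.94 CPM in Zn, so that its groups overlapped. Zn replicate 2 is the library of 495778 counts, in which 11.7 CPM is 6 counts. Without Zn replicate 1 0 members were called and Snord43 turned to -0.52, and DESeq2 called 0.

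In Baf250a KD with Cu 0 of 23 members were called, 0 had an unadjusted p under 0.05, DESeq2 called 0, and 1.27% of genes tested were called. The count was 1 without Baf250a KD NT replicate 2. In Brd9 KD 0 of 30 members were called with Cu, where 0.274% of 14978 genes tested were called and 1 member had an unadjusted p under 0.05. With Zn 0 of 30 were called in Brd9 KD, where 0.0334% of genes were called and 2 members had an unadjusted p under 0.05, and DESeq2 called 0 in both. Snord15a in Brd9 KD had 5.06 and 11.5 CPM in NT, 5.78 and 7.27 CPM in Cu and 5.55 and 5.30 CPM in Zn, with overlap between the groups.

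The difference of the metal responses between Baf180 KD and scr was tested as an interaction over all 24 libraries. With Cu, 4 of 31 members had a higher response in Baf180 KD and 0 a lower one, where 5.39% of all 16524 genes tested were higher. These were Snora73b (1.91 ± 0.46, SE), Snora17 (1.60 ± 0.37), Snora78 (1.79 ± 0.57) and Snord17 (1.28 ± 0.41). With Zn, 13 of 31 were higher and 0 lower, where 16.1% of genes tested were higher, and the median difference was 1.08 (all genes 0.09). The groups did not overlap in either line for 9 of the 13. The share of all genes with such groups was not computed, so this count is a description only. The 13 were 8 C/D box members (Snord13, Snord15a, Snord17, Snord43, Snord49b, Snord55, Snord83b and Snord118) and 5 H/ACA box members (Snora17, Snora57, Snora73a, Snora73b and Snora78), of which Snord13 is a description for the reason given above. Without scr NT replicate 2 the counts were 0 with Cu and 1 with Zn, Snora17, and the medians 0.54 and 0.70. Over all genes, 1 was then called with Cu in place of 2116, and 1883 with Zn in place of 4742. With a correction for GC content and length the counts were 0 and 3, with 34 and 1085 genes called in all and medians of 0.72 and 0.89.

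Snord118 carried the largest difference in Zn among members whose groups did not overlap in either line (2.93 ± 0.75, SE; edgeR adjusted p = 0.00677). In scr it had 2.23 and 7.76 CPM in NT and 1.19 and 1.32 CPM in Zn, whereas in Baf180 KD it had 0.90 and 0.95 CPM in NT and 1.96 and 1.59 CPM in Zn. Snora78 followed (2.39 ± 0.58, SE; edgeR adjusted p = 0.00509). Snora17, the only call without scr NT replicate 2, had 5.35 and 9.75 CPM in scr NT, 3.70 and 3.40 CPM in scr Zn, 2.78 and 3.33 CPM in Baf180 KD NT and 5.66 and 4.74 CPM in Baf180 KD Zn. With all 24 libraries, scr NT replicate 2 included, its difference was 1.865 ± 0.382 (SE; edgeR adjusted p = 0.00196). The count with Cu was 16 without scr NT replicate 1, 0 without Baf180 KD Cu replicate 1, 1 without Baf180 KD NT replicate 2 and 2 without any 1 of 9 other libraries (Baf180 KD NT replicate 1, both NT libraries of Baf250a KD and of Brd9 KD, and both Cu and both Zn libraries of scr). That with Zn was 8 without Baf180 KD Zn replicate 1. These counts stand without the share of all genes and are a description only.

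**Figure D5:**
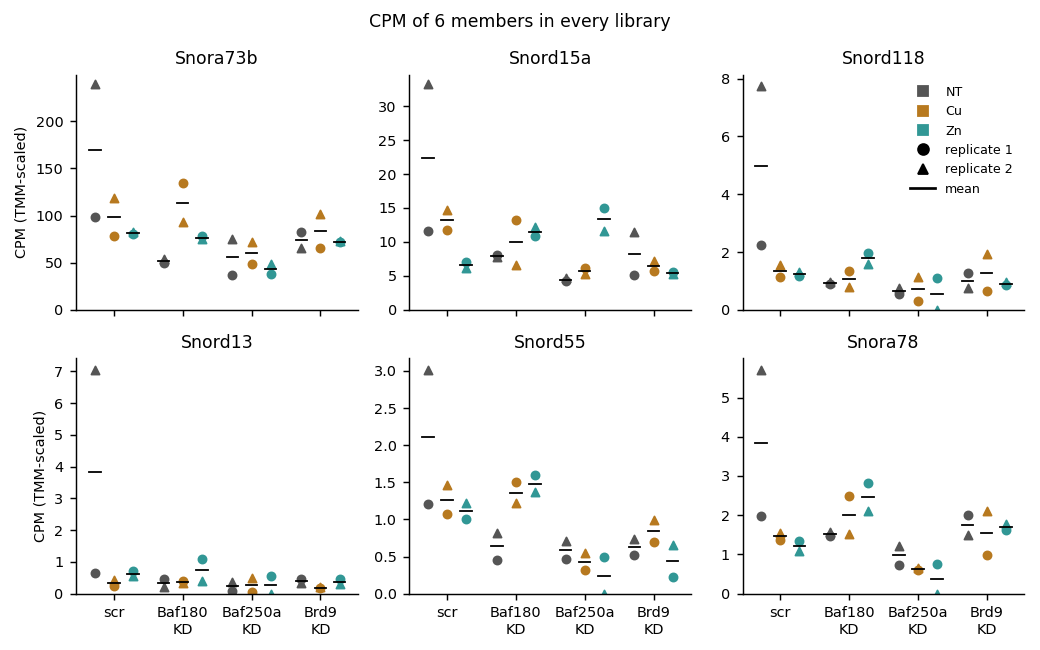
CPM (y axis, from 0) of 6 members in every library, by cell line (x axis) and treatment (grey NT, brown Cu, teal Zn), with replicate 1 as circles, replicate 2 as triangles and the mean as a bar. Scr NT replicate 2 is the highest point of each panel, and Snord15a rises with Zn in Baf250a KD (15.04 and 11.67 CPM).

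Host genes gave a second readout from longer RNAs at the same loci. By the annotation 25 of 31 members lie in 21 host genes, 8 of which encode ribosomal proteins. In Baf250a KD against scr 13 of 20 host genes tested fell and 1 rose (median -0.44), where 27.0% of all genes tested fell and 26.0% rose. Without scr NT replicate 2 it was also 13 and 1 (median -0.42), where 26.0% of genes fell. Of 20 pairs of member and host, which hold 17 distinct hosts, 19 had the same sign (Spearman rho 0.356, not tested). Members (26 of 27 tested) and hosts both lay mostly below 0, so this count does not show that a member followed its own host. The 7 members called that had a host tested all had a host that fell as well, for example Snora73b (-1.10) and Snhg3 (-0.50). In 15 of the 20 pairs the member lay below its host. In Brd9 KD against scr 12 of 24 pairs had the same sign, and 0 of the 3 members called with a host tested had a host called in the same direction. Rps3, the host of Snord15a, had log2 fold changes of -0.70 in scr with Zn (adjusted p = 0.0275 by edgeR) and 0.69 in Baf250a KD with Zn (adjusted p = 0.00155 by edgeR), beside -1.69 and 1.73 for Snord15a. Without scr NT replicate 2 0 of 21 host genes were called in scr with Zn. In Baf180 KD with Cu, Snhg3 had -0.11 (adjusted p = 0.519 by edgeR) beside 1.10 for Snora73b.

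Transcripts that encode the proteins of the snoRNA particles moved in the same direction as the members in Baf250a KD. Protein levels were not measured, and in this paragraph a protein or factor stands for its transcript. Of the C/D box proteins, Nop56 (-0.59), Fbl (-0.54) and Snu13 (-0.42) fell and Nop58 had -0.33, and of the H/ACA box proteins, Nhp2 (-0.63), Dkc1 (-0.625) and Nop10 (-0.39) fell and Gar1 had -0.33. Of 16 assembly and trafficking factors 9 fell and 2 rose, where 27.0% of all genes tested fell and 26.0% rose. Without scr NT replicate 2 the counts were the same, 3 of 4, 3 of 4 and 9 with 2, although Nop58 passed in place of Snu13. With Zn in Baf250a KD, 2 of 4 C/D box proteins rose (Fbl 0.79 and Nop56 0.47), 2 of 4 H/ACA box proteins rose (Gar1 0.89 and Nhp2 0.88), and 6 of 16 assembly factors rose and 0 fell. Over all genes tested, 8.85% rose with Zn in Baf250a KD and 7.13% fell with Zn in scr. With Zn in scr, Fbl (-0.62), Gar1 (-0.47) and Nhp2 (-0.41) fell, and 0 of these proteins passed without scr NT replicate 2. Against scr, 1 of 4 C/D box and 1 of 4 H/ACA box proteins passed in each of Brd9 KD and Baf180 KD. Those in Brd9 KD were higher and those in Baf180 KD lower. Without scr NT replicate 2, Nop56 (-0.27) and Nop58 (-0.38) both passed in Baf180 KD.

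Other short RNAs were read beside the members. In Baf250a KD against scr 6 of 21 tested fell and 0 rose (median -0.56), where 27.0% of all genes tested fell (26.0% without scr NT replicate 2). Among the 6 were Terc, the RNA of telomerase (-1.83), Rnu3a, a gene of the U3 snoRNA (-1.61), and Vaultrc5, the vault RNA (-1.37). In Brd9 KD 8 of 23 fell and 0 rose, with Rny3 (-1.72) and Rny1 (-1.17) lowest, where 15.7% of genes fell (17.3% without scr NT replicate 2). In the Zn response of Baf180 KD against scr 10 of 24 were higher and 0 lower, where 16.1% of genes were higher, and Rny3 (3.91) and Rny1 (3.42) led. Rows of biotype snoRNA with another symbol fell for 16 of 32 tested in Baf250a KD and rose for 0 (median -0.86). Without scr NT replicate 2, 3 of 21 other short RNAs fell in Baf250a KD, 8 of 23 in Brd9 KD, 3 of 24 were higher in the Zn response, and 10 of 33 rows of biotype snoRNA with another symbol fell in Baf250a KD.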

How the data were processed

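RNA-seq of rRNA-depleted RNA was analysed in 24 libraries, 2 independent replicates in each of 12 conditions. The authors extracted RNA with TRIzol, removed rRNA with RNase H, made strand-specific paired-end libraries, aligned uniquely mapping pairs to mm10 with STAR and deposited raw gene counts from featureCounts. The annotation release is not given in the sources used here. Also deposited were tables of the authors' DESeq2 log2 fold changes and p-values, which were not used. Groups were taken from the sample titles, because the treatment field of the labels contradicts them. The number of count columns without a sample was 0.

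Counts were tested with edgeR 4.0.16 (R 4.3.3; quasi-likelihood, TMM, filterByExpr) over all genes that passed, with Benjamini-Hochberg adjustment and a threshold of 0.05. Each metal was compared with NT within a line (6 libraries), each KD with scr (12 libraries, treatment as a term), and the metal responses of Baf180 KD and scr as an interaction (24 libraries). Alternatives were DESeq2 1.42.0, RLE size factors, a filter of at least 1 count, the replicate number as a block, a correction for GC content and length, untreated libraries alone, and each library left out. Cu and Zn libraries alone, untreated libraries with scr NT replicate 1 only, and leaving out both libraries that stood apart were added after seeing the data. Each fit was tested on simulated data. Total counts of 495778 to 75179394 limit precision in the shallowest library. Members and lists were chosen with earlier results of these data known. Named members were Snord15a, the 3 of highest mean CPM in each class, the 2 rows on either side of the count threshold, per comparison up to 2 called members in each direction with the largest change and no overlap of groups, and the members of the lists of processing, Rpl13a, Gas5, Snhg1 and imprinted snoRNAs. Other called members were named after their values were seen. Sequences and positions came from GENCODE M21 on GRCm38. Some sequences and a host gene are not reported here.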

Additional observations from a re-analysis of the deposited data

Results flagged for a closer look

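The metal responses of Baf180 KD and scr were compared by an interaction test, with 31 members tested. Over all genes tested, 5.39% had a higher response in Baf180 KD with Cu and 16.1% with Zn. Snord13, called with Zn, met the count threshold only through scr NT replicate 2. The number of snoRNA members called was 4 with Cu and 13 with Zn, all with the higher response in Baf180 KD, and without scr NT replicate 2 it was 0 and 1. The difference in the Zn response was 2.93 for Snord118 and 2.39 for Snora78 on the log2 scale, and neither member was called without scr NT replicate 2.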

How the results depend on the processing

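Of 1003 recomputed log2 fold changes of called members, 779 kept their direction and side of the threshold, 223 kept only the direction and 1 reversed (Snord43 in Baf250a KD with Zn, -0.52 without Zn replicate 1 and up to 1.403 without NT replicate 2). The 1003 include settings of the interaction tests that left out a library of Baf250a KD or Brd9 KD. Such libraries do not enter the difference itself, so the share kept is not a measure of robustness. The causes of the changes below were not tested. Leaving out 1 library gave 0 to 13 members called in scr with Zn, 1 to 4 in Baf180 KD with Cu, 0 to 1 in Baf250a KD with Cu, 0 to 4 in Baf250a KD with Zn, 0 to 2 in Baf180 KD against scr, 8 to 22 in Baf250a KD against scr, 2 to 7 in Brd9 KD against scr, 0 to 16 in the Cu response and 1 to 15 in the Zn response of Baf180 KD against scr. These ranges stand without the shares of all genes and are a description only. The filter of at least 1 count gave 7 lower in scr with Cu (0.542% of genes fell) and 14 lower in scr with Zn (4.2%). It gave 4 higher in Baf180 KD with Cu (4.09% of genes rose) and 1 higher in Baf180 KD with Zn (0.587%). In Baf250a KD with Zn it gave 5 (8.6% of genes called in either direction). Against scr, 6 were lower in Baf180 KD (10.8% of genes) and 7 in Brd9 KD (8.31%). In the Cu response 11 were higher (2.44% of genes). DESeq2 gave 1 lower in scr with Cu (0.327% of genes fell) and 1 higher in Baf180 KD with Zn (0.249% rose). It gave 0 in Baf250a KD with Zn (2.31% of genes called). Correcting for length and GC content gave 0 in scr with Zn (0.109% of genes called) and 1 higher in Baf180 KD with Cu (2.35% rose). Against scr it gave 3 higher in Baf180 KD (none of them Snora23; 19.6% of genes rose). In Baf250a KD against scr it gave 7, of which 6 fell (34.3% of genes fell). It gave 0 in the Cu response (0.21% of genes called) and 3 higher in the Zn response (4.44% of genes). Untreated libraries alone gave 18 in Baf180 KD against scr, and with scr NT replicate 1 as the only scr library, which is assumed to vary like the KD pair, 4 for Baf180 KD, 11 for Baf250a KD and 1 for Brd9 KD. Cu and Zn libraries alone gave 3, 4 and 2 for Baf180 KD, Baf250a KD and Brd9 KD against scr, and leaving out both libraries that stood apart gave 8 for Baf250a KD. With RLE size factors the summed member CPM was 145.0 in scr Zn, 147.8 in Baf180 KD Zn and 144.9 in Brd9 KD NT, against 140.1, 149.5 and 142.4 with TMM. Without Snora73b and Snord17 the median share of C/D box members was 56.7%.

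Samples of the same replicate number deviated from their group means with correlations of -0.185 to 0.28 over the 4 lines. In Baf180 KD all 3 lay above 0.1 (0.134 to 0.247), and the block raised the genes called there from 2097 to 3892 with Cu and from 3 to 657 with Zn. With 2 numbers a line and no shared source in the labels, the samples were taken to share only a number. With the replicate number as a block 0 members were called in scr with Zn, 1 in Baf180 KD with Zn (Snora73b), 3 in Baf180 KD with Cu and 7 in the Cu response of Baf180 KD against scr, and 12 in Baf250a KD against scr. Counts in the library of 495778 counts limit every value of Baf250a KD Zn.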
